A study of Homo sapiens with 24 samples.

Results

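Complex I, the NADH:ubiquinone oxidoreductase of the mitochondrial inner membrane, was followed through the messenger RNA of its nuclear-encoded subunits and assembly factors. The members were all rows of the deposited table whose symbol starts with NDUF, with pseudogenes left out, which gave 51 of 19158 genes. They comprised 37 subunits of the complex, 8 assembly factors with the symbol NDUFAF, the 2 genes NDUFA4 and NDUFA4L2, and 4 antisense, divergent or read-through rows. RNA was sequenced from ARP1, a human line of multiple myeloma, the malignancy of plasma cells. These cells had been cultured for 24 h with LPA or with PBS as vehicle. The labels give LPA as an abbreviation alone; it is read here as lysophosphatidic acid, a signalling lipid with G protein-coupled receptors. They state its dose as 4 mg/mL, a unit that is in doubt. Each group had 3 libraries, LPA 1 to 3 and PBS 1 to 3, each read in 4 lanes that were averaged and counted as 1 replicate. Whether replicate libraries stem from separate cultures is not stated in the labels, and p-values therefore describe library-to-library spread that may be technical.

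Complex I takes electrons from NADH, passes them along a flavin and a chain of iron-sulfur clusters to ubiquinone, and pumps protons across the membrane as it does so. It has an L shape, with a matrix arm that holds the electron path and a membrane arm that holds the proton pumps. Its core subunits are those shared with bacteria, part of them nuclear-encoded and part encoded in mitochondrial DNA, and the accessory subunits surround this core. Assembly factors build the complex from modules and are not part of the finished enzyme. Plasma cells are known to draw on mitochondrial respiration for antibody secretion.

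Values are in FPM, fragments scaled to a fixed total per library, so a gene's FPM is its share of the sequenced RNA. Changes in the amount of RNA per cell or in the make-up of the culture cannot be told apart from it. The libraries held 8740992, 7446950 and 6941747 reads with LPA and 5615625, 5529582 and 5498910 reads with PBS. At these depths 1 read was worth between 0.114 and 0.182 FPM. Among the 45 subunits and NDUFAF factors, reads per library ranged between 62 for NDUFAF2 and 1384 for NDUFS1 with LPA, and between 20 for NDUFAF2 and 675 for NDUFS1 with PBS. Log2 fold changes set LPA over PBS after adding 1 FPM to every value, which understates the change of low genes, and a gene is said to pass the test at an adjusted p below 0.05. On this scale the median of all 16274 tested genes was 0.13 higher with LPA. For that reason results are also given on rescaled FPM, in which each library was divided by a median-of-ratios size factor that brings the median gene to 0.00. LPA 3 and PBS 2 stood apart within their groups. In chi-square per degree of freedom over all genes, LPA 3 differed by 2.39 and 2.81 from the other LPA libraries, which differed by 1.35 from each other. PBS 2 differed by 3.66 and 3.74 from PBS 1 and PBS 3, which differed by 1.33. All 10 listed plasma cell and myeloma markers, among them SDC1, TNFRSF17 and JCHAIN, were found, with summed levels between 2757 and 2937 FPM with LPA and between 1710 and 1873 FPM with PBS. The markers of mature B cells, T cells and myeloid cells stayed low, with sums of at most 3.08, 2.15 and 6.57 FPM with LPA and of at most 2.35, 0.18 and 4.28 FPM with PBS. The T cell genes CD3D and CD2, the B cell gene MS4A1, the myeloid gene LYZ and the epithelial gene EPCAM were not analysed here. Those of stroma and epithelium summed to between 14.0 and 18.4 FPM with LPA and between 17.0 and 23.8 FPM with PBS. Among them COL1A1, a collagen of stromal cells, was lower in every LPA library, as were 7.42% of all tested genes. It had 10.99, 10.35 and 9.38 FPM with LPA and 14.4, 12.3 and 17.1 FPM with PBS. The sum of the T cell markers rests on CD3E alone. Of the 10 plasma cell markers, 8 lay higher in all 3 LPA libraries than in any PBS library, and CD38 and SLAMF7 overlapped. On the same deposited FPM 31.4% of all tested genes lay higher in this way. The markers were not counted on rescaled FPM. JCHAIN made up much of their sum, with 1383, 1328 and 1425 FPM with LPA and 721, 810 and 730 FPM with PBS. CD38 had 4.47, 7.92 and 5.46 FPM with LPA and 6.23, 8.33 and 7.28 FPM with PBS. MZB1 was low as well, at 4.80, 4.84 and 5.04 FPM with LPA and 3.21, 2.89 and 3.09 FPM with PBS. The myeloid gene CSF1R stood above it in LPA 2, at 6.04 FPM. The part of these markers in the results was not tested.

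Promoter sequences are shown for the 2 assembly factors and the 2 subunits with the smallest adjusted p on rescaled FPM, among genes whose RefSeq start lies within 500 bases of the start in GENCODE release 29. They include NDUFAF2 and NDUFA12, relatives whose products occupy the same place in the complex at different stages of its assembly. Each runs 5′ to 3′ over 300 bases, 250 before and 50 after the start of the gene, taken from RefSeq on build GRCh38.p14. Capitals mark matches on either strand to 6 motifs, GCATGC for NRF1, CCGGAA for ETS factors, ATGGCGG for YY1, CCAAT for NFY, GGGCGG for SP1 and CACGTG for E box factors. The YY1 and SP1 motifs share their last bases but differ in the base before them, so the same stretch cannot match both. The windows are NDUFAF1 at chr15:41402447-41402746 on the minus strand, NDUFAF2 at chr5:60944955-60945254 on the plus strand, NDUFS1 at chr2:206159395-206159694 on the minus strand and NDUFA12 at chr12:95003648-95003947 on the minus strand.
NDUFAF1: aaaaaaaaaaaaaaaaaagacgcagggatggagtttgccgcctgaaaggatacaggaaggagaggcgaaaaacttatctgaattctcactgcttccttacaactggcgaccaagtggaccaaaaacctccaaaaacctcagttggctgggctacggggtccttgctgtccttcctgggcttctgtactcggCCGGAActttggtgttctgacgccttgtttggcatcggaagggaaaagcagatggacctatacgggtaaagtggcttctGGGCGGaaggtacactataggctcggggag
NDUFAF2: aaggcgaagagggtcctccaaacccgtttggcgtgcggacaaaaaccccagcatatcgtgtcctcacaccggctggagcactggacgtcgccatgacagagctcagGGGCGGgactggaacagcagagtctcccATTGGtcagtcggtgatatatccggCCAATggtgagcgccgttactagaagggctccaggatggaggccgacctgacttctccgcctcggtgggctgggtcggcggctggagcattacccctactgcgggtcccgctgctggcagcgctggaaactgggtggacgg
NDUFS1: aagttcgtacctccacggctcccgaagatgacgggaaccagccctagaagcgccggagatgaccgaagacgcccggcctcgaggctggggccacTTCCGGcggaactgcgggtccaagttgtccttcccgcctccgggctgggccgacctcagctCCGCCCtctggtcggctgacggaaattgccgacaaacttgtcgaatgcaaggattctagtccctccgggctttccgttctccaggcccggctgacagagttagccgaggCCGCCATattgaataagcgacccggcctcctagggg
NDUFA12: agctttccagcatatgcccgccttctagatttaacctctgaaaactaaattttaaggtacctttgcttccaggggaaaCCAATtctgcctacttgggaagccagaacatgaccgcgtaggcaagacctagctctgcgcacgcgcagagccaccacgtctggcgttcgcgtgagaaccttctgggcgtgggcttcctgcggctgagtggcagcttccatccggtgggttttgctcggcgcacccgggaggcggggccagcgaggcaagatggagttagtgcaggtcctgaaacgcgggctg
The NDUFS1 window holds 1 ETS, 1 SP1 and 1 YY1 match, and the NDUFAF1 window holds 1 ETS and 1 SP1 match. In NDUFAF2 there are 2 NFY matches and 1 SP1 match, and in NDUFA12 there is 1 NFY match. None of the 4 windows holds the NRF1 or E box letters, which says nothing about binding of these factors.

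Of the 50 NDUF members tested, 25 rose with LPA on deposited FPM and 8 on rescaled FPM, by modest amounts. These 50 include NDUFA4, NDUFA4L2 and the antisense and divergent rows, which are not complex I genes, and NDUFA4 was among the 25. The log2 fold change was above 0 for 48 of the 50 members tested on deposited FPM and for 40 on rescaled FPM, against 11512 and 8175 of all 16274 tested genes. By limma the 25 that rose on deposited FPM, with 0 that fell, stood against 22.5% of all tested genes that rose and 4.49% that fell. The 8 that rose on rescaled FPM, with 0 that fell, stood against 9.63% and 9.45% of all tested genes. For the zero counts, 0 members were lower at an unadjusted p below 0.05 on deposited FPM and 1 was on rescaled FPM, against 1082 and 2462 of all 16274 tested genes, and both edgeR and DESeq2 on reads recovered from the FPM called 0 lower, against 9.40% and 5.79% of all tested genes. They called 9 and 2 of the 50 higher, against 9.59% and 4.92% of all tested genes, so that the DESeq2 count was no larger than the share of all genes. The 8 genes were NDUFA12, NDUFA5, NDUFAB1, NDUFAF1, NDUFAF2, NDUFB5, NDUFS1 and NDUFV3, and all 8 were among the 25. The 3 LPA libraries lay all above the 3 PBS libraries for 33 members, against 31.4% of tested genes, and all below for 0 members, against 7.42%. After rescaling they lay all above for 16 members, against 16.6% of tested genes, and all below for 2, NDUFA13 and NDUFA6-DT, against 17.0%. The median log2 fold change was 0.29 for the 37 subunits and 0.42 for the 8 NDUFAF factors, against 0.13 for all tested genes. After rescaling the medians were 0.15 and 0.28, against 0.00. The 20 subunits that rose, of 37 (13 without LPA 2), and the 4 NDUFAF factors that rose, of 8 (2 without LPA 3), became 6 and 2 on rescaled FPM. Of all tested genes 19.7% were higher without LPA 2 and 15.1% without LPA 3. The plot of fold changes by class shows both scales for each gene.

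**Figure D1:**
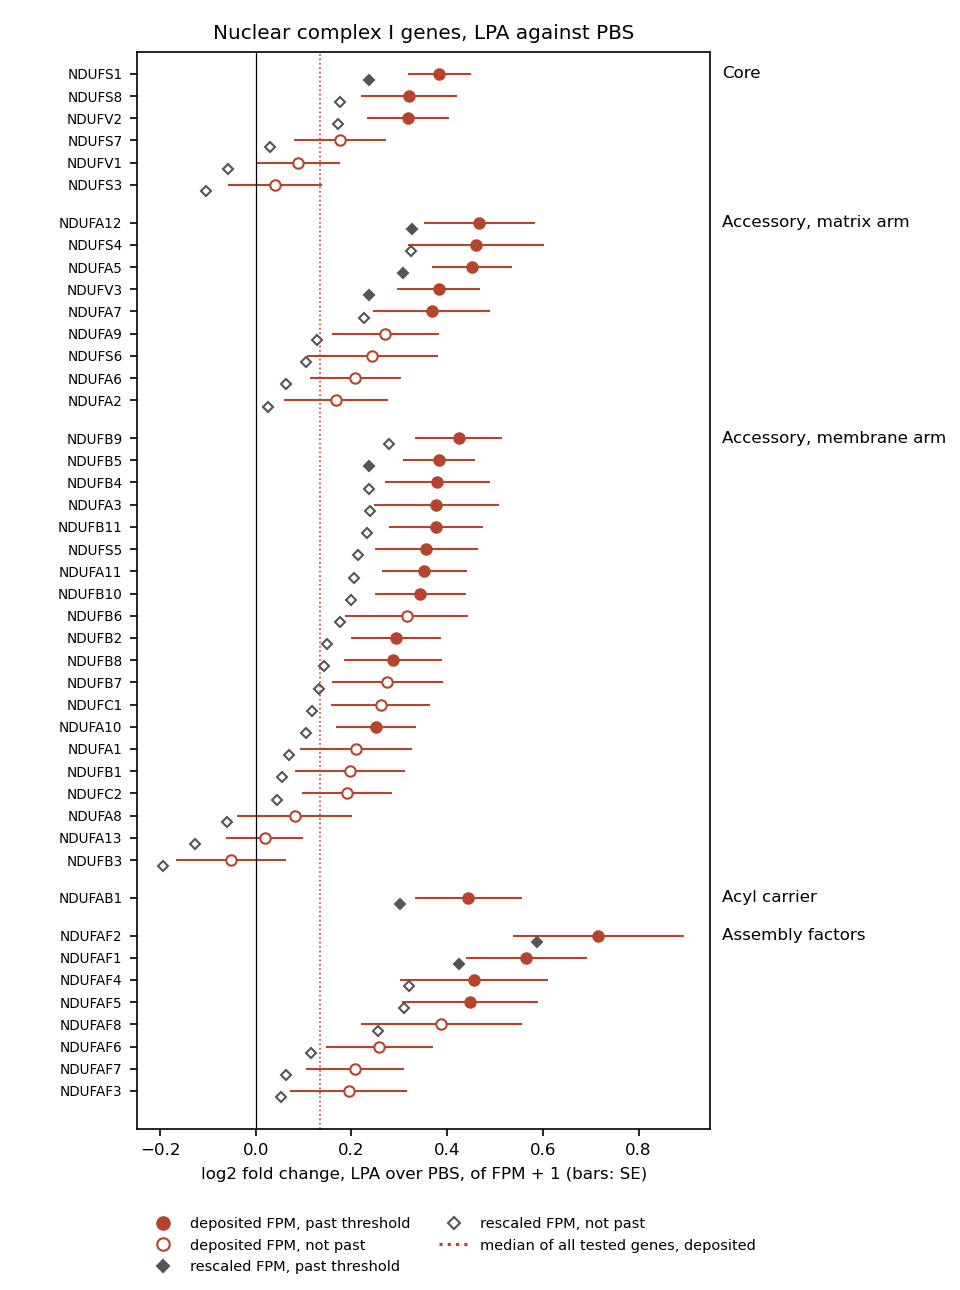
Log2 fold change of LPA over PBS for 36 of the 37 subunits and the 8 NDUFAF factors (x axis, log2 of FPM + 1), ordered within classes down the y axis; circles with SE bars are deposited FPM, diamonds are rescaled FPM, and filled symbols passed the test. The dotted line is the median of all tested genes at 0.13, and 35 of the 36 subunits shown lie above 0 on deposited FPM and 31 on rescaled FPM.

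Of the 7 nuclear core subunits 3 rose on deposited FPM and 1 on rescaled FPM, against 22.5% and 9.63% of all tested genes. NDUFS1, NDUFS8 and NDUFV2 rose on deposited FPM, and NDUFS1 alone also rose on rescaled FPM. NDUFS7, NDUFV1 and NDUFS3 were among those that did not pass on either scale. The median log2 fold change of the core class was 0.18, and 0.03 after rescaling, which was the lowest median of the subunit classes on both scales. NDUFS1, the largest core subunit, carries iron-sulfur clusters of the matrix arm. It had 158, 145 and 162 FPM in LPA 1 to 3, against 120, 119 and 117 FPM in PBS 1 to 3. Every LPA library lay above every PBS library, and they still did after rescaling, with 152, 141 and 147 FPM with LPA against 129, 119 and 124 FPM with PBS. The log2 fold change was 0.38 ± 0.07 (SE, adjusted p = 1.12e-05), and 0.24 on rescaled FPM (adjusted p = 0.000941). NDUFS8, which holds a pair of iron-sulfur clusters near the ubiquinone site, had 31.2, 34.0 and 30.4 FPM with LPA and 26.1, 24.6 and 25.3 FPM with PBS. The groups did not overlap, with a log2 fold change of 0.32 ± 0.10 (SE, adjusted p = 0.0133), but they overlapped after rescaling, where the fold change was 0.18 (adjusted p = 0.206). Without LPA 2, NDUFS8 did not pass on deposited FPM (0.27, adjusted p = 0.0877). NDUFV2, whose iron-sulfur cluster lies beside the flavin, had 60.9, 55.5 and 60.2 FPM with LPA and 43.1, 52.1 and 46.2 FPM with PBS. LPA 2 and PBS 2 were closest, and the groups stayed apart. The log2 fold change was 0.32 ± 0.09 (SE, adjusted p = 0.00392), and 0.17 on rescaled FPM (adjusted p = 0.0917).

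Among the core subunits that did not pass, NDUFS7 holds the last iron-sulfur cluster of the chain. It had 39.8, 35.9 and 45.8 FPM with LPA and 36.5, 36.9 and 33.4 FPM with PBS, and LPA 2 fell within the PBS range (log2 fold change 0.18 ± 0.10, SE, adjusted p = 0.177). NDUFS3, a scaffold of the matrix arm, had 31.6, 30.8 and 31.7 FPM with LPA and 27.8, 30.7 and 33.1 FPM with PBS, all LPA values inside the PBS range (log2 fold change 0.04 ± 0.10, SE, adjusted p = 0.811). NDUFV1 binds NADH and the flavin. It had 52.7, 53.7 and 65.7 FPM with LPA and 58.2, 49.0 and 54.2 FPM with PBS, and LPA 3 alone was above the PBS range (log2 fold change 0.09 ± 0.09, SE, adjusted p = 0.505). On rescaled FPM the fold changes of NDUFS3 and NDUFV1 turned to -0.10 and -0.06, with adjusted p of 0.476 and 0.690.

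Among the 9 accessory subunits of the matrix arm, 5 rose on deposited FPM, where 22.5% of all tested genes did, and 3 on rescaled FPM, where 9.63% did. The 5 were NDUFA12, NDUFS4, NDUFA5, NDUFV3 and NDUFA7, and the class median was 0.37, and 0.23 after rescaling. NDUFA12 binds the outer part of the matrix arm, at the site held earlier in assembly by its relative NDUFAF2. It had 24.5, 24.9 and 21.6 FPM with LPA and 15.5, 16.6 and 18.4 FPM with PBS. LPA 3 was the lowest of its group and PBS 3 the highest of the other. The log2 fold change was 0.47 ± 0.12 (SE, adjusted p = 0.00155). It was 0.33 on rescaled FPM (adjusted p = 0.0346), where LPA 3, at 19.5 FPM, came just under PBS 3, at 19.6 FPM. NDUFS4, a subunit of the NADH-oxidising end whose loss causes Leigh syndrome, had 12.1, 15.0 and 14.0 FPM with LPA and 8.91, 10.7 and 9.46 FPM with PBS. No LPA library reached down to the PBS range (log2 fold change 0.46 ± 0.14, SE, adjusted p = 0.0117), and the rescaled fold change was 0.32 (adjusted p = 0.0891). NDUFA5, an accessory subunit at the middle of the matrix arm, had 63.9, 60.2 and 59.8 FPM with LPA and 43.4, 46.9 and 43.3 FPM with PBS. Its groups were tight and far apart, with a log2 fold change of 0.45 ± 0.08 (SE, adjusted p = 3.56e-05). On rescaled FPM the groups lay closer but did not overlap, at 61.4, 58.5 and 54.1 FPM with LPA and 46.7, 47.0 and 46.2 FPM with PBS, with a fold change of 0.31 (adjusted p = 0.00176). With DESeq2, NDUFA5 and NDUFS1 were the 2 members that passed, at adjusted p of 0.0211 and 0.0100. NDUFV3 and NDUFA7 had log2 fold changes of 0.38 and 0.37. The class members that did not pass, NDUFA9, NDUFS6, NDUFA6 and NDUFA2, had fold changes of 0.27, 0.24, 0.21 and 0.17. When single libraries were left out, NDUFS4 did not pass without LPA 2 or PBS 1 (adjusted p = 0.0794 and 0.0515) and NDUFA7 did not without LPA 1 or LPA 2 (adjusted p = 0.0825 and 0.138). Without PBS 2, NDUFA9 and NDUFA6 passed (adjusted p = 0.0381 and 0.0193).

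Of the 20 accessory subunits of the membrane arm, 11 rose on deposited FPM, where 22.5% of all tested genes did, with a class median of 0.29, and 0.15 after rescaling. On rescaled FPM 1 of the 20 rose, a share below the 9.63% of all tested genes. It was NDUFB5, at 0.38 deposited and 0.24 rescaled (adjusted p = 9.87e-05 and 0.0161). The others that rose on deposited FPM were NDUFB9, NDUFB4, NDUFA3, NDUFB11, NDUFS5, NDUFA11, NDUFB10, NDUFB2, NDUFB8 and NDUFA10, at log2 fold changes between 0.25 and 0.42. The lowest among them are given per library. NDUFB2, a small subunit of the far end of the arm, had 38.1, 42.5 and 38.8 FPM with LPA and 30.6, 33.1 and 33.1 FPM with PBS (log2 fold change 0.29 ± 0.09, SE, adjusted p = 0.0152). NDUFB8, of the same end, had 28.4, 30.1 and 29.8 FPM with LPA and 23.5, 22.4 and 26.0 FPM with PBS (log2 fold change 0.29 ± 0.10, SE, adjusted p = 0.0318). NDUFA10, which resembles nucleoside kinases, had 61.3, 55.5 and 66.1 FPM with LPA and 50.2, 51.5 and 51.1 FPM with PBS (log2 fold change 0.25 ± 0.08, SE, adjusted p = 0.020). For these 3 genes the groups did not overlap, but none passed on rescaled FPM, and NDUFB8 passed in 1 and NDUFA10 in 2 of the 6 fits that left out 1 library. NDUFB8 lost its call without any library but PBS 3, with adjusted p between 0.0637 and 0.10, and NDUFA10 without LPA 1, LPA 3, PBS 1 or PBS 3, with adjusted p between 0.0535 and 0.132. NDUFB2 lost its call without LPA 2 or PBS 1 (adjusted p = 0.102 and 0.0699), NDUFB4 without LPA 2 (adjusted p = 0.0561), and NDUFA3 without LPA 1, LPA 2 or PBS 1 (adjusted p = 0.0762, 0.122 and 0.0518). NDUFB6 passed without LPA 3 or PBS 2 (adjusted p = 0.0436 and 0.0405), NDUFB7 without PBS 1 (adjusted p = 0.0379) and NDUFC1 without LPA 3 (adjusted p = 0.0433). The 9 that did not pass with all libraries ranged between -0.05 for NDUFB3 and 0.32 for NDUFB6. NDUFA13, also known as GRIM-19, had 61.5, 60.0 and 64.9 FPM with LPA and 65.7, 59.7 and 58.7 FPM with PBS, an overlap with a log2 fold change of 0.02 ± 0.08 (SE, adjusted p = 0.899). On rescaled FPM its 3 LPA libraries lay below the 3 PBS libraries, at 59.1, 58.4 and 58.7 FPM with LPA against 70.6, 59.9 and 62.7 FPM with PBS, with a fold change of -0.13 (adjusted p = 0.212). NDUFAB1, the acyl carrier protein of mitochondrial fatty acid synthesis, sits in both arms of the complex. It had 28.6, 26.6 and 23.3 FPM with LPA and 19.9, 18.8 and 18.0 FPM with PBS. All LPA values were above all PBS values, at a log2 fold change of 0.44 ± 0.11 (SE, adjusted p = 0.00177), and the rescaled value was 0.30 (adjusted p = 0.0436).

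**Figure D2:**
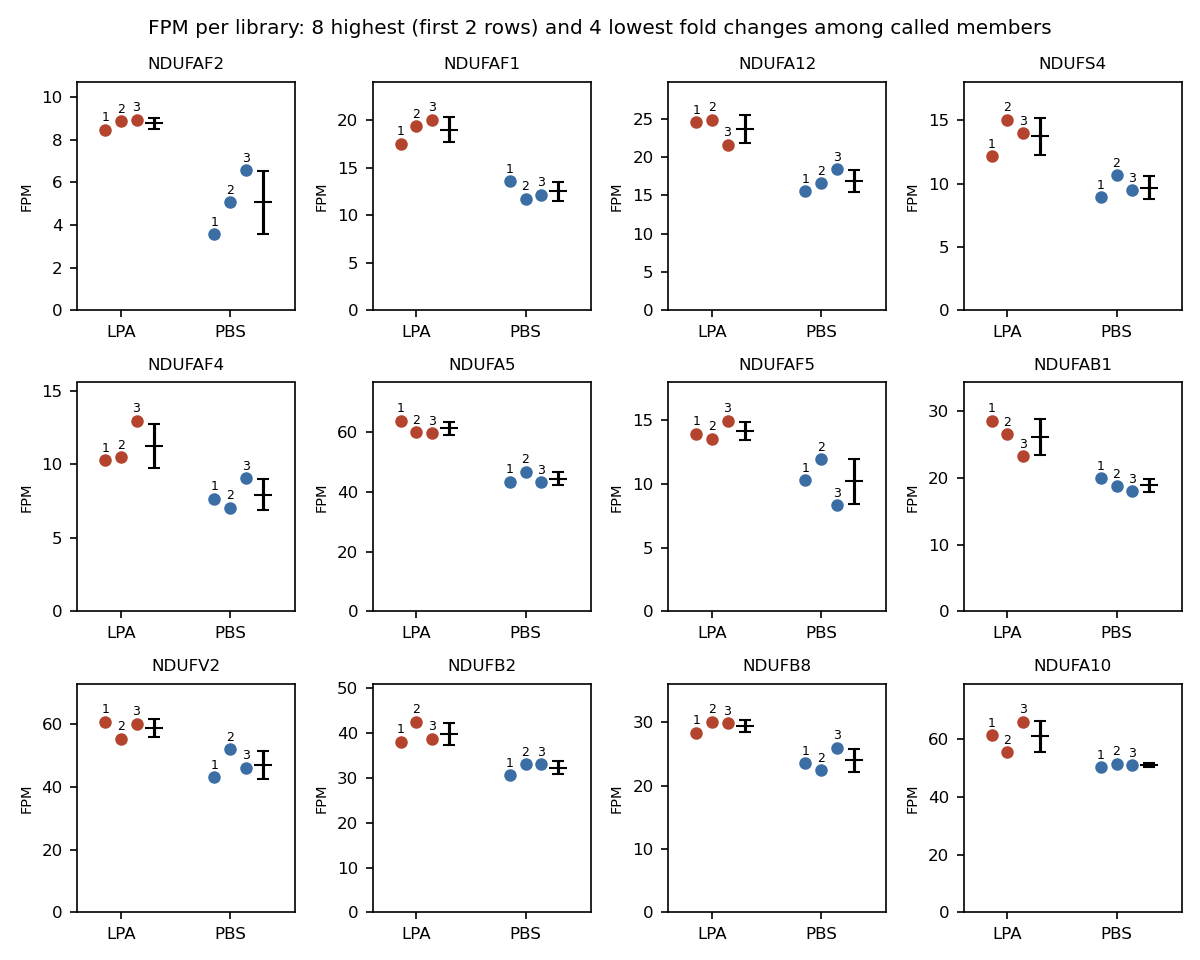
FPM in each library (y axis, starting at 0) for the 8 members with the highest log2 fold change among those that passed, in the first 2 rows, and the 4 with the lowest, in the last row; points are libraries 1 to 3 with LPA on the left and PBS on the right, and bars give the mean and SD. In each panel the 3 LPA libraries lie above the 3 PBS libraries, with the highest ratio of means in NDUFAF2, at 8.75 ± 0.26 FPM with LPA and 5.06 ± 1.49 FPM with PBS (SD, n = 3 each).

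All 8 NDUFAF assembly factors had their 3 LPA libraries above their 3 PBS libraries on deposited FPM, as did 31.4% of all tested genes, and on rescaled FPM 4 of the 8 did, against 16.6%. NDUFAF2, NDUFAF1, NDUFAF4 and NDUFAF5 rose on deposited FPM, where 22.5% of all tested genes did. Of these 4, NDUFAF2 and NDUFAF1 also rose on rescaled FPM, where 9.63% did. NDUFAF2 holds the place of NDUFA12 in late assembly intermediates. It had 8.46, 8.87 and 8.93 FPM with LPA and 3.57, 5.06 and 6.55 FPM with PBS. The LPA libraries were close together and the PBS libraries were spread, on 20, 28 and 36 reads. The log2 fold change was 0.72 ± 0.18 (SE, adjusted p = 0.00181), the highest of all members, and 0.59 on rescaled FPM (adjusted p = 0.0164). NDUFAF1 is a member of the MCIA complex, which builds part of the membrane arm. It had 17.5, 19.3 and 20.0 FPM with LPA and 13.6, 11.7 and 12.2 FPM with PBS. The gap between the groups was wider than the spread within either, with a log2 fold change of 0.57 ± 0.13 (SE, adjusted p = 0.000499) and 0.43 on rescaled FPM (adjusted p = 0.00953). NDUFAF4, which acts with NDUFAF3 on the module that holds the ubiquinone site, had 10.3, 10.5 and 13.0 FPM with LPA and 7.66, 7.04 and 9.08 FPM with PBS. Its highest values were in LPA 3 and PBS 3, at a log2 fold change of 0.46 ± 0.15 (SE, adjusted p = 0.0224), and it did not pass on rescaled FPM (0.32, adjusted p = 0.136). NDUFAF5, an enzyme that hydroxylates an arginine of NDUFS7, had 14.0, 13.6 and 15.0 FPM with LPA and 10.3, 11.9 and 8.36 FPM with PBS. PBS 3 was low, and the groups did not overlap (log2 fold change 0.45 ± 0.14, SE, adjusted p = 0.0145, and 0.31 on rescaled FPM, adjusted p = 0.104). NDUFAF4 lost its call without LPA 3, PBS 1 or PBS 2 (adjusted p = 0.155, 0.0599 and 0.0639), and NDUFAF5 without LPA 3 or PBS 3 (adjusted p = 0.0748 and 0.124).

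The other 4 assembly factors did not pass. NDUFAF8, which stabilises NDUFAF5, had 8.12, 8.59 and 9.22 FPM with LPA and 7.83, 5.61 and 5.83 FPM with PBS, with PBS 1 just below the LPA range (log2 fold change 0.39 ± 0.17, SE, adjusted p = 0.0792). NDUFAF6, needed for the membrane subunit MT-ND1 to be built in, had 23.9, 22.7 and 23.8 FPM with LPA and 20.5, 20.8 and 17.3 FPM with PBS (log2 fold change 0.26 ± 0.11, SE, adjusted p = 0.0811). NDUFAF7 methylates an arginine of a core subunit. It had 36.2, 29.4 and 28.8 FPM with LPA and 26.5, 27.0 and 27.5 FPM with PBS, and LPA 1 stood above the other LPA libraries (log2 fold change 0.21 ± 0.10, SE, adjusted p = 0.131). NDUFAF3, the partner of NDUFAF4, had 17.6, 16.1 and 18.4 FPM with LPA and 15.3, 14.4 and 15.4 FPM with PBS (log2 fold change 0.19 ± 0.12, SE, adjusted p = 0.256). For all 4 the groups were separated on deposited FPM and overlapped on rescaled FPM. NDUFAF8 passed without PBS 1 (0.52, adjusted p = 0.0346) and NDUFAF6 without PBS 2 (0.30, adjusted p = 0.0419).

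Subunits and NDUFAF factors were compared within each library, where the scaling of the library cancels apart from the pseudocount. The mean log2(FPM + 1) over the 37 subunits was 5.17, 5.17 and 5.11 in LPA 1 to 3 and 4.88, 4.86 and 4.89 in PBS 1 to 3. Over the 8 NDUFAF factors it was 4.01, 3.99 and 4.08 with LPA and 3.63, 3.61 and 3.63 with PBS. The groups were apart for both classes. On rescaled FPM the subunit means were 5.12, 5.13 and 4.98 with LPA and 4.99, 4.86 and 4.98 with PBS, so that LPA 3 fell to the level of PBS 1 and PBS 3. The rescaled means of the NDUFAF factors were 3.96, 3.95 and 3.95 with LPA and 3.73, 3.62 and 3.71 with PBS, with no overlap. Subunits minus NDUFAF factors was 1.16, 1.18 and 1.03 with LPA and 1.25, 1.25 and 1.26 with PBS, a difference of means of -0.13 on the log2 scale. Every LPA library was below every PBS library. LPA 3 was the lowest, and without it the difference was -0.08. With medians over the genes in place of means the difference was -0.16, and LPA 2, at 1.01, then overlapped PBS 2, at 0.99. When the 14 assembly factors with other symbols were added it was -0.02, with overlapping groups. The difference carries no test, since the members were chosen with earlier results known.

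**Figure D3:**
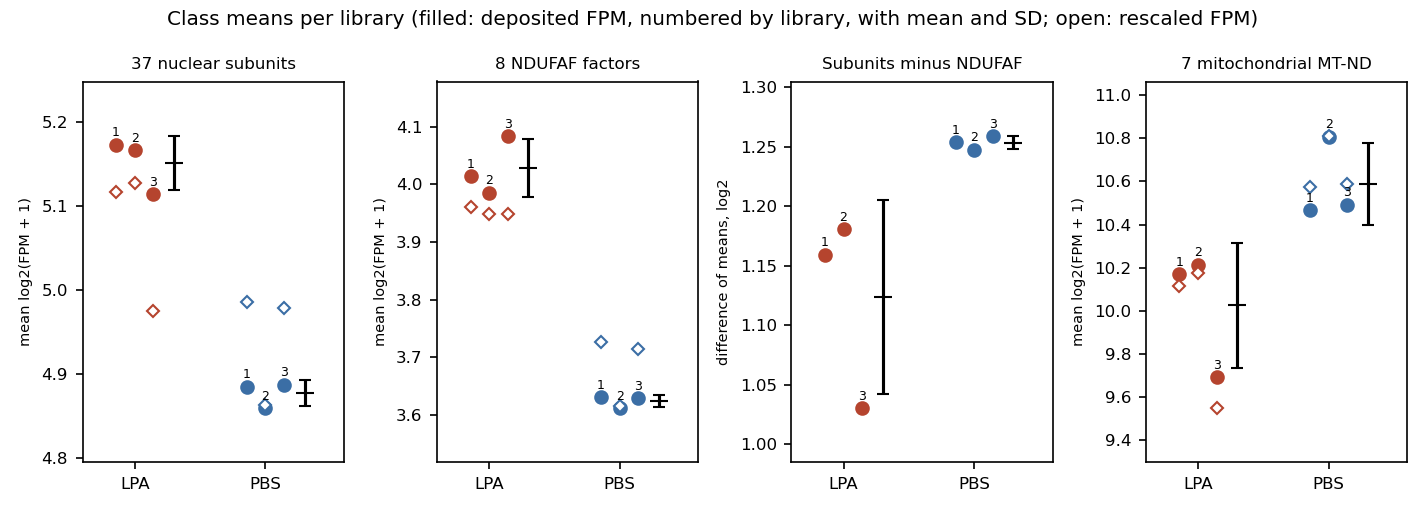
Class means of log2(FPM + 1) per library (y axes, log2 scale) for the 37 subunits, the 8 NDUFAF factors, their difference and the 7 mitochondrially encoded subunits; filled points are deposited FPM numbered by library, open diamonds are rescaled FPM, and bars give the mean and SD of the 3 libraries. LPA is left of PBS in each panel: both nuclear classes are higher with LPA on deposited FPM, LPA 3 drops to the PBS level for rescaled subunits, and the MT-ND mean is lower with LPA.

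Members were also set against the mean of the 37 subunits in the same library, a description chosen after the values were seen. Relative to that mean, NDUFA5, NDUFA3 and NDUFB10 were higher in all 3 LPA libraries than in any PBS library, as were NDUFAF2 and NDUFAF1, where 4.55% of all tested genes were. Of the subunits, 5 were lower in all 3 LPA libraries than in any PBS library, among them NDUFA2, NDUFS3, NDUFA13 and NDUFB3, where 28.2% of all tested genes were. The shares of all genes are set by the centring on the subunits, whose fold changes lay above the median gene, and nothing is read from them. Each subunit is also part of the mean, so rises of some subunits relative to it are balanced by falls of others. NDUFB3, a membrane arm subunit, stood at -0.43, -0.73 and -0.81 log2 units relative to the subunit mean with LPA and at -0.36, -0.39 and -0.24 with PBS. NDUFA5 stood at 0.85, 0.77 and 0.81 with LPA and 0.59, 0.72 and 0.58 with PBS.

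Of the 7 subunits encoded in mitochondrial DNA, 1 fell with LPA on deposited FPM and 2 on rescaled FPM. All 7 had negative log2 fold changes, with a median of -0.55, and their 3 LPA libraries lay all below the 3 PBS libraries for 6 of them, against 7.42% of all tested genes. By limma the gene that fell on deposited FPM was MT-ND2, where 4.49% of all tested genes fell. Of the 7, 0 rose on deposited FPM, where 22.5% of all tested genes rose. The 2 that fell on rescaled FPM stood against 9.45% of all tested genes. MT-ND2 did not pass without any 1 of the 6 libraries, with adjusted p between 0.0758 and 0.108. Without LPA 3 the count was 2, MT-ND4L and MT-ND6 (adjusted p = 4.7e-08 and 0.00982), and without any other single library it was 0. Over these 6 fits 3.32% to 4.37% of all tested genes were lower. At an unadjusted p below 0.05 the counts were 3 lower and 0 higher, against 1082 and 4980 of all 16274 tested genes, and edgeR called 7 lower and DESeq2 5 lower, against 9.40% and 5.79% of all tested genes, with 0 higher by either. MT-ND2, a proton-pumping subunit of the membrane arm, had 1637, 1719 and 1219 FPM with LPA and 2419, 3085 and 2439 FPM with PBS. LPA 3 was the lowest library and PBS 2 the highest, and the groups did not overlap (log2 fold change -0.80 ± 0.19, SE, adjusted p = 0.0439, and -0.95 on rescaled FPM, adjusted p = 0.0435). MT-ND1, the membrane subunit next to the ubiquinone site, had 1453, 1501 and 1166 FPM with LPA and 1961, 2534 and 1948 FPM with PBS (log2 fold change -0.64 ± 0.16, SE, adjusted p = 0.0564). On rescaled FPM it fell by 0.79 (adjusted p = 0.0455). MT-ND4L and MT-ND4 had log2 fold changes of -0.66 and -0.50 on deposited FPM, with adjusted p of 0.0808 and 0.151. These 2 genes share exon bases on the same strand. All 7 lie on the same mitochondrial DNA, and the counts among them are not taken as independent results. The pattern leans on the libraries that stood apart: without LPA 3 and PBS 2 the median fold change of the 7 genes was -0.23. All genes of the mitochondrial genome took 2.41, 2.46 and 2.03% of reads with LPA and 2.90, 3.79 and 2.94% with PBS. The summed FPM of the 37 nuclear subunits was 1512, 1485 and 1493 with LPA and 1247, 1212 and 1238 with PBS. That of the 7 mitochondrial ones was 10547, 10838 and 8093 with LPA and 13073, 17092 and 13267 with PBS. The ratio of the mitochondrial to the nuclear sum was 6.98, 7.30 and 5.42 with LPA and 10.5, 14.1 and 10.7 with PBS, with no overlap, and this ratio does not depend on how a library is scaled.

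Assembly factors without an NDUF symbol were taken as a list of 14 genes. On deposited FPM 7 rose (3 without LPA 1, LPA 3, PBS 1 or PBS 3) and 0 fell by limma, against 22.5% and 4.49% of all tested genes, at a median log2 fold change of 0.21. In the fits where 3 rose, 15.1% to 17.5% of all tested genes were higher. On rescaled FPM 1 of the 14 rose, against 9.63% of all tested genes, at a median of 0.07. At an unadjusted p below 0.05 on deposited FPM 8 were higher and 0 lower, against 4980 and 1082 of all 16274 tested genes, and edgeR called 1 higher and DESeq2 called 0, against 9.59% and 4.92% of all tested genes, with 0 lower by either. Under rescaling, edgeR and DESeq2 the share called higher was thus no larger than that of all genes. DMAC1, which takes part in building the distal membrane arm, had 23.1, 24.0 and 28.2 FPM with LPA and 16.2, 19.5 and 16.6 FPM with PBS. It was the gene that rose on both scales, at 0.50 ± 0.12 (SE, adjusted p = 0.000703) and 0.36 rescaled (adjusted p = 0.0118). ECSIT, a partner of NDUFAF1 in the MCIA complex, had 26.2, 26.3 and 29.2 FPM with LPA and 22.1, 18.5 and 20.7 FPM with PBS (log2 fold change 0.40 ± 0.11, SE, adjusted p = 0.00393). Another MCIA member, ACAD9, had 33.5, 33.0 and 33.3 FPM with LPA and 32.6, 28.7 and 30.7 FPM with PBS, at a log2 fold change of 0.11 ± 0.10 (SE, adjusted p = 0.415). Of the genes taken here as MCIA members, NDUFAF1, ECSIT and TMEM126B (0.27, adjusted p = 0.0439) passed on deposited FPM and ACAD9 did not. This is not a full list of the MCIA members, and the difference between the genes was not tested. TMEM186, also among the 14, did not pass either, at 0.08 ± 0.16 (SE, adjusted p = 0.757) with overlapping groups. NUBPL, which delivers iron-sulfur clusters to the complex, was at 0.39 ± 0.12 (SE, adjusted p = 0.00916), and COA1 at 0.21 ± 0.07 (SE, adjusted p = 0.0240). On rescaled FPM ECSIT, NUBPL, TMEM126B and COA1 were at 0.26, 0.25, 0.12 and 0.06, with adjusted p of 0.0746, 0.124, 0.386 and 0.512. COA1 lost its call without LPA 1, LPA 3, PBS 1 or PBS 3, with adjusted p between 0.0691 and 0.133. ACAD9, TMEM126B and TMEM186 were named after their values were seen.

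NDUFA4 carries a complex I name but its product is now placed in complex IV, cytochrome c oxidase. It had 45.0, 37.4 and 48.1 FPM with LPA and 34.2, 34.7 and 33.8 FPM with PBS. The PBS libraries were nearly equal and the LPA libraries were spread above them, at a log2 fold change of 0.33 ± 0.10 (SE, adjusted p = 0.00679), and 0.18 on rescaled FPM (adjusted p = 0.123). Without LPA 3 it did not pass (0.25, adjusted p = 0.0794). Its paralogue NDUFA4L2, a target of hypoxia-inducible factor, had 4.46, 3.49 and 5.19 FPM with LPA and 2.67, 5.98 and 3.99 FPM with PBS. All LPA values fell inside the PBS range (log2 fold change 0.08 ± 0.21, SE, adjusted p = 0.823). The remaining rows did not pass. NDUFV2-AS1 and NDUFB2-AS1, antisense rows, were at 0.12 and 0.03, and NDUFA6-DT, transcribed away from NDUFA6, was at -0.12, and -0.26 rescaled. The read-through NDUFC2-KCTD14 was at 1.49, 0.67 and 0.72 FPM with LPA, and it was at 0, 0.90 and 0 FPM with PBS, too low to be tested. A count of 0 in PBS 1 or PBS 3 allows up to 0.534 or 0.546 FPM, which covers counting error only. The strand setting of the counting is not given in the sources used here, and 25 of the 45 subunits and NDUFAF factors share exon bases with another gene, 13 on the same strand and 20 on the other. Such pairs include NDUFB2 with NDUFB2-AS1, NDUFC2 with NDUFC2-KCTD14, and NDUFS1 with EEF1B2 on the other strand. Whether their shared reads were kept apart is not known.

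Levels were compared between genes per kilobase of the shortest principal transcript. The median FPM per kilobase over the 37 subunits was 36.5 with LPA and 31.9 with PBS. Over the 8 NDUFAF factors it was 12.6 with LPA and 8.02 with PBS. The highest level was that of NDUFA11, a membrane arm subunit, with 99.7 FPM per kilobase with LPA and 77.6 with PBS. The lowest was that of NDUFAF5, with 2.56 FPM per kilobase with LPA and 1.85 with PBS. These ranks depend on the transcript taken. With that transcript NDUFS1 ranked 7 of 45 with PBS, and with its longest it ranked 37.

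Promoters were found in RefSeq for 39 of the 45 subunits and NDUFAF factors. Those of NDUFB5, NDUFS5, NDUFC2, NDUFAF6 and NDUFB9 were among those not matched. Of the 39, 31 start within 500 bases of the start in GENCODE release 29. The YY1 letters ATGGCGG, marked in the NDUFS1 window above, were in 14 of the 39 windows, or 35.9%, against 7.63% of 15842 promoters of protein-coding genes. The NRF1 letters GCATGC were in 9, or 23.1%, against 7.97%. For the other motifs the shares lay closer, at 28.2% against 22.9% for ETS, 28.2% against 36.4% for NFY, 56.4% against 58.5% for SP1 and 10.3% against 8.88% for the E box. Against all 27305 promoters in the table, other gene types included, the shares were 5.72% for YY1, 7.48% for NRF1, 17.6% for ETS, 35.7% for NFY, 44.6% for SP1 and 7.43% for the E box. Of the subunit windows 13 of 32 held the YY1 letters, as did 1 of 7 NDUFAF windows. The median log2 fold change was 0.29 for the 14 members with the YY1 letters and 0.32 for the 25 without. For NRF1 it was 0.25 for the 9 with and 0.32 for the 30 without, for ETS 0.21 and 0.32, and for SP1 0.27 and 0.38. For NFY it was 0.38 for the 11 with and 0.29 for the 28 without, and for the E box 0.36 for the 4 with and 0.29 for the 35 without. A match is a description of letters and not of a bound site.

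**Figure D4:**
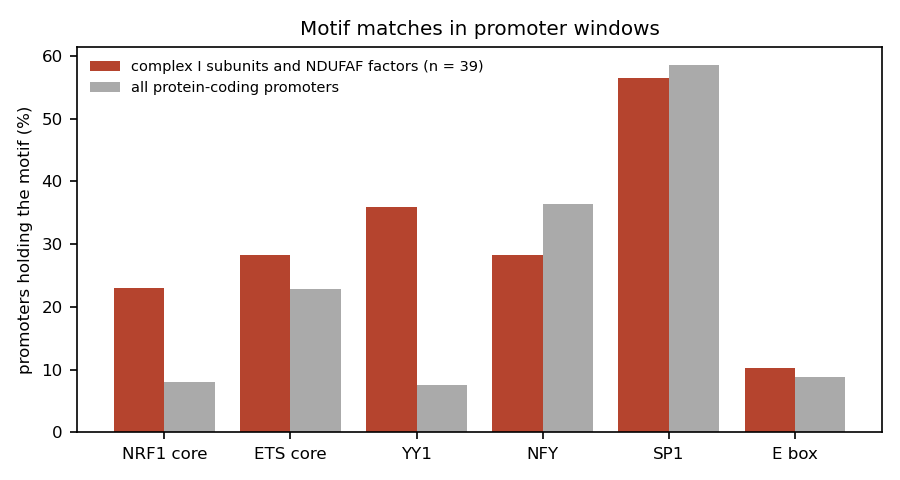
Share of promoter windows that hold each motif on either strand (y axis, percent, starting at 0) for the 39 windows of complex I subunits and NDUFAF factors, left bars, and for 15842 promoters of protein-coding genes, right bars. YY1 and NRF1 stand out, at 35.9% against 7.63% and 23.1% against 7.97%, and the SP1, ETS, NFY and E box bars lie closer together.

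Many of these genes start beside another gene. For 23 of the 45 subunits and NDUFAF factors, or 51.1%, a protein-coding gene on the opposite strand starts within 1000 bases, against 16.7% of 13876 tested protein-coding genes. Of these neighbours 20 were tested, of which 8 rose and 1 fell on deposited FPM, against 22.5% and 4.49% of all tested genes, and 4 rose and 1 fell on rescaled FPM, against 9.63% and 9.45%. EEF1B2, a translation elongation factor subunit, starts 18 bases from NDUFS1 and shares exon bases with it on the other strand. EEF1B2 had 239, 238 and 253 FPM with LPA and 171, 188 and 178 FPM with PBS, at a log2 fold change of 0.44 (adjusted p = 1.09e-07), and 0.29 rescaled (adjusted p = 5.95e-06). ERCC8, a DNA repair gene 56 bases from NDUFAF2, was at 0.39 (adjusted p = 0.0351) and did not pass on rescaled FPM (0.26, adjusted p = 0.209). ESF1, 64 bases from NDUFAF5, was at 0.42 (adjusted p = 0.000835), and 0.28 rescaled (adjusted p = 0.0256). MRPL47, beside NDUFB5, rose on deposited FPM as NDUFB5 did. The other risen neighbours were CCNE2, CPSF2, CEBPZ and FAM126B, beside NDUFAF6, NDUFB1, NDUFAF7 and NDUFB3, which did not pass. CEBPZ shares exon bases with NDUFAF7, and FAM126B with NDUFB3, on the other strand. Whether reads of such pairs were kept apart is not known. CCNE2 had the highest fold change of the neighbours tested, at 0.75 (adjusted p = 7.24e-08), where NDUFAF6 was at 0.26. FAM126B was at 0.30 (adjusted p = 0.00119), where NDUFB3 was at -0.05. TEPSIN, 148 bases from NDUFAF8, fell, with 16.6, 15.4 and 17.4 FPM with LPA and 22.8, 20.6 and 21.5 FPM with PBS (log2 fold change -0.37, adjusted p = 0.0129, and -0.51 rescaled, adjusted p = 0.000634), whereas NDUFAF8 was at 0.39. These neighbours were looked up after the values of the members were seen.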

How the data were processed

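The deposited values are FPM, that is CPM counted in fragments, in 1 table that holds a column per lane (24 lanes). Aligner, counter and strand setting: not given in the sources used here. Gene identifiers are human Ensembl ones although mm10, a mouse build, is named in the submitters' processing notes, so no coordinates come from the table. Repeated rows (187 of 19345) were dropped. Whole reads were recovered for 100% of values within a tolerance of 0.02 reads. The listed genes hold 86.5% to 91.6% of the library totals, and the lowest total of a listed gene is 10 reads.

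The 4 lanes of a library were averaged. The filter kept genes that reached 1 FPM in 3 or more of the 6 libraries. With limma 3.58.1 (trend, robust, two-sided) their log2(FPM + 1) was tested, and p-values were adjusted by Benjamini-Hochberg over all 16274 genes at 0.05. Alternatives were rescaled FPM, upper-quartile scaling, pseudocounts of 0.5 and 4 FPM, other filters, 1 prior variance, a replicate block, libraries left out, and edgeR 4.0.16 and DESeq2 1.42.0 on recovered reads. The main limma fit was also run on simulated counts, and the alternatives were not.

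Members and lists were chosen with earlier results of these data known. Values per library were given for the 8 highest and the 4 lowest fold changes among members that passed with groups that did not overlap, the nuclear core subunits, the 8 NDUFAF factors, NDUFA4 and NDUFA4L2, and up to 4 genes of each pathway list were named by smallest p. Symbols were matched for 19118 of 19158 identifiers. Exons, gene starts and transcript lengths came from GENCODE release 29 and promoters from RefSeq (GRCh38.p14). No protein sequences were used here. The values of 1 subunit are counted in the totals and not reported here.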

Additional observations from a re-analysis of the deposited data

How the results depend on the processing

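No alternative turned the sign of a called member. The 25 members higher with LPA became 8 with median-of-ratios scaling, 7 with upper-quartile scaling, 14 with 1 prior variance, 9 with edgeR and 2 with DESeq2, where 9.63%, 8.85%, 9.62%, 9.59% and 4.92% of all tested genes were higher. They became 18 to 27 when 1 library was left out. In those fits 15.1% (without LPA 3) to 27.6% (without PBS 2) of all tested genes were higher, which also applies to the left-out counts of the classes below. The 20 subunits became 6, 5, 12, 7 and 2 under the same 5 settings, and 13 (without LPA 2) to 22 with 1 library left out. The 4 NDUFAF factors became 2, 2, 2, 2 and 0, and 2 (without LPA 3) to 4 with 1 library left out. Of the 25 members, 14 passed in all 6 fits without 1 library. The share of all called genes that did so is not given here, so the 14 are not ranked against it. The weakest were NDUFB8, passing in 1, NDUFA10 in 2, and NDUFA3 and NDUFAF4 in 3. The lower count of the 7 MT-ND genes, 1, became 2, 2, 3, 7 and 5 under the 5 settings, where 9.45%, 9.86%, 2.91%, 9.40% and 5.79% of all tested genes were lower. It was 0 with no filter on low values, 2 with a filter at 5 FPM and 0 to 2 (2 without LPA 3) with 1 library left out. There 3.89%, 5.61% and 3.32% to 4.37% of all tested genes were lower. The 7 other assembly factors higher with LPA became 1, 1, 4, 1 and 0, and 3 to 8 with 1 library left out (3 without LPA 1, LPA 3, PBS 1 or PBS 3).

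The median of the subunits, 0.29, became 0.15, 0.14, 0.16 and 0.16 with median-of-ratios scaling, upper-quartile scaling, edgeR and DESeq2, 0.27 with a pseudocount of 4 FPM and 0.27 to 0.32 with 1 library left out. That of the NDUFAF factors, 0.42, became 0.28, 0.28, 0.30 and 0.30, 0.32 with a pseudocount of 4 FPM, 0.29 without LPA 3 and PBS 2, and 0.33 to 0.45 with 1 library left out. That of the other assembly factors, 0.21, became 0.066, 0.057, 0.071 and 0.066, and 0.19 to 0.27 with 1 library left out. That of the MT-ND genes was -0.23 without LPA 3 and PBS 2. Subunits minus NDUFAF factors was -0.024 with the other assembly factors added and -0.073 with a pseudocount of 4 FPM. Rescaling removes the shift of the median gene by construction; the cause of the other moves was not tested.

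Genes near 0 that passed under none of these settings changed sign. With median-of-ratios scaling, upper-quartile scaling, edgeR and DESeq2 the values were -0.058, -0.067, -0.060 and -0.063 for NDUFV1, -0.081, -0.088, -0.081 and -0.078 for NDUFB2-AS1, -0.060, -0.069, -0.076 and -0.078 for NDUFA8, -0.036, -0.044, -0.086 and -0.089 for NDUFA4L2, -0.10, -0.11, -0.10 and -0.11 for NDUFS3 and -0.13, -0.14, -0.13 and -0.13 for NDUFA13. For NDUFV2-AS1 they were -0.0087, -0.016 and -0.0029 with the scalings and DESeq2. Without LPA 3 and PBS 2 they were -0.024 for NDUFV2-AS1, -0.076 for NDUFV1, -0.031 for NDUFA13 and 0.0058 for NDUFB3. With 1 library left out they ran over -0.012 to 0.15 for NDUFV1, -0.17 to 0.13 for NDUFB2-AS1, -0.014 to 0.24 for NDUFA8, -0.15 to 0.32 for NDUFA4L2, -0.024 to 0.098 for NDUFS3, -0.012 to 0.067 for NDUFA13 and -0.18 to 0.045 for NDUFB3.

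The replicate numbers did not pair the libraries: same-numbered libraries had correlations of -0.01, -0.04 and -0.05 of their deviations from the group means. With the replicate block the member count stayed at 25, 7 MT-ND genes were called lower and 4 of the other assembly factors higher, where 20.5% of all tested genes were higher and 4.42% lower. Among the 45 subunits and NDUFAF factors NDUFAF2 had the fewest reads, 20 in PBS 1.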
